A study of Homo sapiens with 6 samples.

Results

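Histone and DNA methylation enzymes were followed as a group of genes across C4-2 cells in which the Polycomb methyltransferase EZH2 was inhibited or depleted. The group was set by gene name: lysine and arginine methyltransferases outside Polycomb repressive complex 2 (PRC2), lysine demethylases, DNA methyltransferases, TET enzymes and the UHRF proteins. Of 52 names, 51 stand in the table of 28503 lines, and KDM7A was skipped because no line bears that name. All 51 reached 1 FPKM (fragments counted per transcript length and library size) in at least 1 column, TET1 only through the GSK126 column, and they belong to the 12935 genes compared.

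C4-2 is an established androgen-independent prostate cancer line derived from LNCaP. Polyadenylated RNA was sequenced from C4-2 cells of passages 10 to 15 that received GSK126, astemizole, lentivirus with 1 of 2 EZH2 shRNAs, lentivirus with a scramble shRNA, or vehicle. GSK126 competes with the methyl donor in the catalytic site of EZH2. Astemizole, an antihistamine, has been described as a disruptor of EZH2 binding to its partner EED. Vehicle is the control for both compounds and scramble shRNA for the hairpins. The labels give neither dose nor time. The labels list 6 libraries, 1 per condition and 2 for the hairpins, while the table has 1 knockdown column that names no hairpin and was taken as the authors' value for the knockdown. Thus every condition had 1 value, no difference has a replicate check, and no test or standard deviation is given. Read depth is not given and FPKM holds no totals.

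Methylation marks are written by methyltransferases that take the methyl group from S-adenosylmethionine and are removed by flavin-dependent or JmjC-domain demethylases. EZH2 places methyl groups on histone H3 lysine 27 (H3K27), which KDM6A and KDM6B remove. DNA methylation is copied at replication by DNMT1, which UHRF1 brings to newly made DNA, while DNMT3A and DNMT3B methylate new sites and TET enzymes oxidise the mark. SUV39H1 and SUV39H2 write the trimethyl mark on H3K9 in heterochromatin. Several of these enzymes are known to be made mainly by dividing cells.

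The target was read first. EZH2 stood at 17.5 FPKM with GSK126, 9.48 with astemizole and 3.35 in the knockdown column, against 24.6 with scramble shRNA and 26.5 with vehicle. All 8 prostate luminal markers, KLK3 and KRT18 among them, were present in every column, at different levels. At least 2-fold lower than their control were 0 of 8 with GSK126, 2 with astemizole (the kallikrein genes KLK2 at -2.10 and KLK3 at -1.12, log2) and 1 with knockdown (KLK2 at -1.11), and the medians were 0.17, -0.49 and -0.33. Of all genes, 0.951% were at least 2-fold lower with GSK126, 5.5% with astemizole and 5.1% with knockdown. These shares also stand beside the 2-fold counts that follow. Proliferation genes were lower in every treated column: with GSK126, astemizole and knockdown in turn, the number of 22 S phase genes that lay 2-fold or further below the control was 10, 22 and 22, with median log2 ratios of -0.96, -1.74 and -2.55. For 24 G2 and M phase genes the counts were 4, 24 and 24, and 23, 24 and 24 of them lay below both controls. Of all genes, 32.7%, 41% and 41.5% lay below both. The controls differed in this list too, with a median of -0.50 for scramble shRNA against vehicle and 23 of 24 genes below 0. Fewer cells in cycle and less RNA per cell cannot be told apart in bulk RNA, and the part of cell division in the ratios below was not tested.

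Ratios are on the log2 scale, treated over control after adding 1 FPKM to both, which understates differences of low genes, and members at 2-fold or more are counted. With GSK126, TET1 was at least 2-fold higher (1 of 51 members, against 1.05% of all genes) and UHRF1 at least 2-fold lower (1 of 51, against 0.951%). TET1 passed the filter of 1 FPKM only through the GSK126 column, so here it could only be counted as higher. If every column is scaled to the same sum, 2.2% of all genes are higher with GSK126 and 0.549% lower. With astemizole 0 members were higher (against 3.53% of all genes) and 7 of 51, or 13.7%, were lower (against 5.5%, and 9.03% in either direction). In the knockdown column KDM6B was higher (1 of 51, against 1.93%) and 4 of 51, or 7.84%, were lower (against 5.1%, and 7.04% in either direction). Between the control columns, scramble shRNA against vehicle, no member passed 2-fold in either direction, against 0.17% of all genes higher, 0.85% lower and 1.02% in either direction. The largest ratio between these controls was -0.59, for DNMT3B. The members' median ratios were 0.02 with GSK126, -0.18 with astemizole and 0.13 with knockdown, beside -0.04, -0.06 and 0.03 over all genes. Signs of small ratios depended on the control: against the other control column, 16 of 51 ratios with GSK126, 16 with astemizole and 9 with knockdown had the opposite sign, the largest of them being 0.40 in size against the matched control. The GSK126 median was -0.04 against scramble shRNA and 0.23 with equal column sums.

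**Figure D1:**
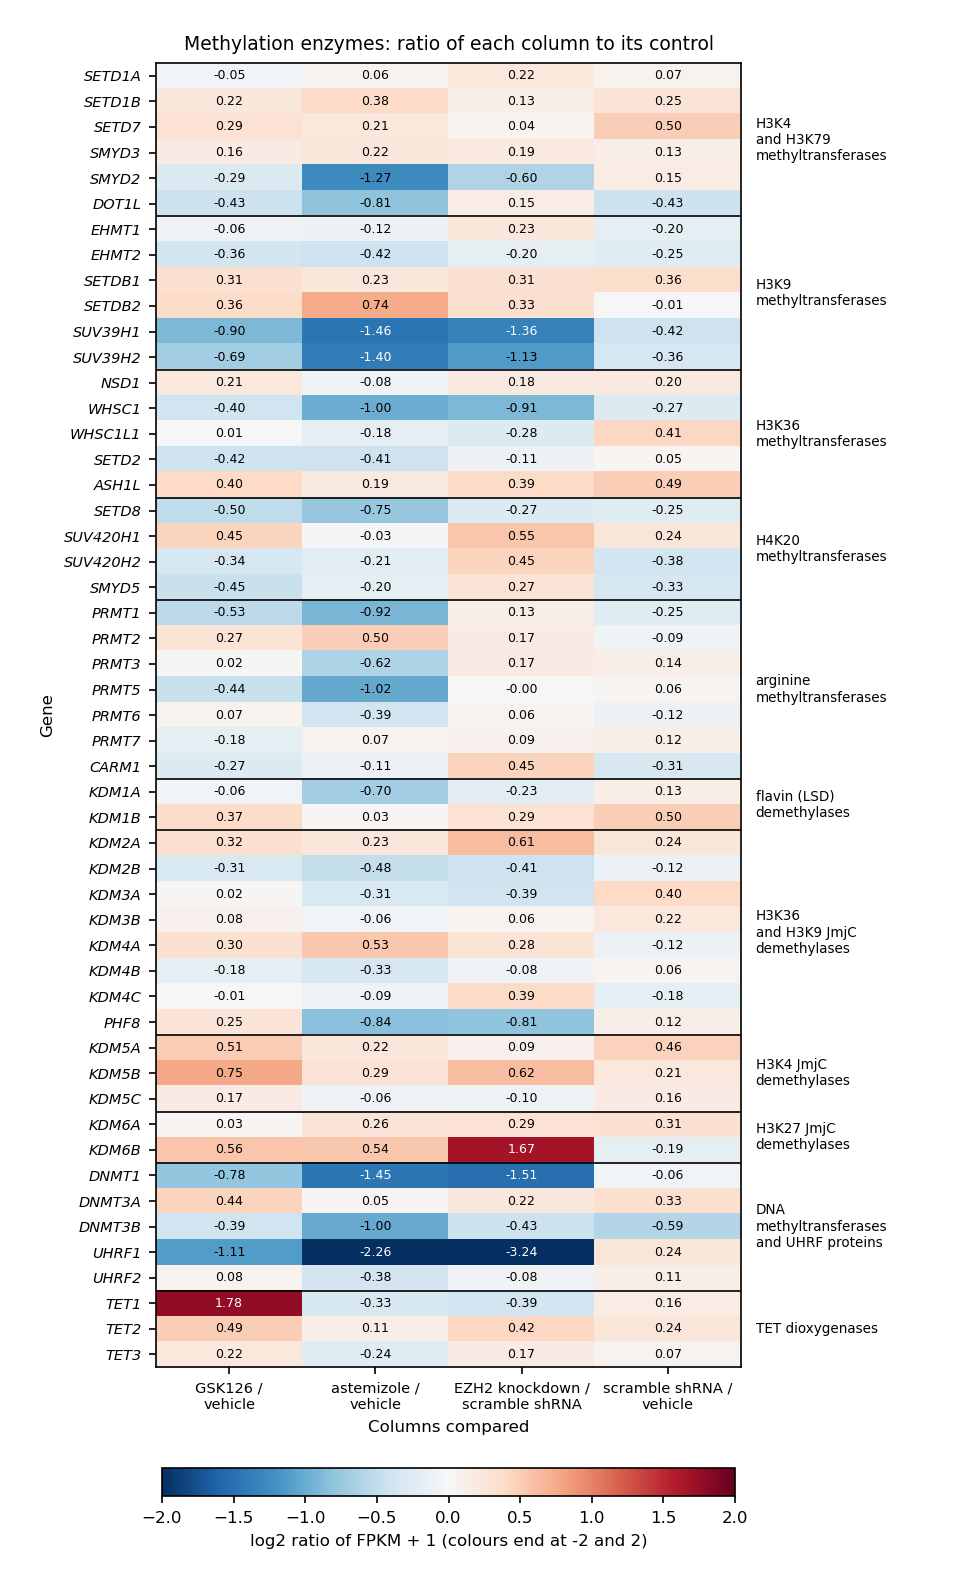
Log2 ratio of FPKM + 1 for the 51 members (rows, by role) in 3 treated columns over their controls and in scramble shRNA over vehicle (columns); the number in each cell is the ratio. UHRF1, DNMT1, SUV39H1 and SUV39H2 are the darkest blue cells with astemizole and knockdown, KDM6B is dark red with knockdown (1.67) and TET1 with GSK126 (1.78).

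The members at least 2-fold lower both with astemizole and in the knockdown column were UHRF1, DNMT1, SUV39H1 and SUV39H2. Because these members were lower together, the 250 bases before a RefSeq start of each are shown (build GRCh38.p14, gene strand, 5′ to 3′). Capitals mark matches on either strand to TTCCCGC or TTGGCGC (E2F sites), TTTGAA (the cell cycle element CHR) and CCAAT (the NF-Y site). UHRF1 lies on the plus strand at chr19:4909251-4909500 (the first of 3 start windows), DNMT1 on the minus strand at chr19:10194954-10195203, SUV39H1 on the plus strand at chrX:48696484-48696733 (the second of 2 windows) and SUV39H2 on the plus strand at chr10:14878616-14878865.
UHRF1: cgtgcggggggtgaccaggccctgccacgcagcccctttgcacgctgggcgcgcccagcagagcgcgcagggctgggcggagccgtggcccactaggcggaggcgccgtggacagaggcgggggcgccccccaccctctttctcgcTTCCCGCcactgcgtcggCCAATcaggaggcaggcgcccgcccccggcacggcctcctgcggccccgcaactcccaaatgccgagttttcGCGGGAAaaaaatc
DNMT1: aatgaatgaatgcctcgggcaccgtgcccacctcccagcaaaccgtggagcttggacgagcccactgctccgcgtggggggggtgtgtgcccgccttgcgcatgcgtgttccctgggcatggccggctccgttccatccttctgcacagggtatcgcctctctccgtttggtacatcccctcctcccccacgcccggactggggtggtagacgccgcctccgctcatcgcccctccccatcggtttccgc
SUV39H1: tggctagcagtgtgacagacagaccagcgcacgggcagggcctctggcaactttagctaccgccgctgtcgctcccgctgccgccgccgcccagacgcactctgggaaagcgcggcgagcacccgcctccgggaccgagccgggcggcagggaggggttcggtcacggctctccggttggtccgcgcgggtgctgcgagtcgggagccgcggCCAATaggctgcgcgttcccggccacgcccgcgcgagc
SUV39H2: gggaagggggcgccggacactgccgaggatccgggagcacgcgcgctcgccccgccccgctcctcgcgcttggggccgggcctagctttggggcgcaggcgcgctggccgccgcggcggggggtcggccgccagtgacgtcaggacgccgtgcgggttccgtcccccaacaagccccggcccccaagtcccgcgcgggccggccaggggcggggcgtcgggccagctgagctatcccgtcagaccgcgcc
The UHRF1 window holds TTCCCGC on both strands, starting 104 and 14 bases before the start, and CCAAT 86 bases before it. The SUV39H1 window holds CCAAT 38 bases before the start. The windows of UHRF1 and SUV39H1 to show were chosen with their matches known: the second UHRF1 window holds CCAAT 125 and 82 bases before its start, and the third UHRF1 window and the first of SUV39H1 hold none of the motifs. Neither the DNMT1 nor the SUV39H2 stretch holds any of these letters, and in SUV39H2 a TTTGAA begins at base 3 after the start. Over windows that also take in 50 bases after the start, 1 of the 4 genes (25.0%) held an E2F motif, against 8 of 44 other members with a window (18.2%) and 11.0% of all 27305 genes. CCAAT was held by 2 of 4, 20 of 44 (45.5%) and 39.7%, and TTTGAA by 1 of 4, 5 of 44 (11.4%) and 18.2%. A gene counts if any of its windows holds the motif, and the sets differ in windows: 7, 72 and 35116. Per window an E2F motif was in 14.3%, 11.1% and 9.23%, CCAAT in 42.9%, 33.3% and 34.6%, and TTTGAA in 14.3%, 6.94% and 15.2%. The 8 other members with an E2F motif were WHSC1, SETD8, PRMT3, PRMT7, KDM1A, KDM1B, UHRF2 and TET3. Their knockdown ratios lay on both sides of 0, from -0.91 for WHSC1 to 0.29 for KDM1B. WHSC1 also held CCAAT and TTTGAA, and SETD8 and TET3 also held CCAAT. SETD1B, DOT1L and WHSC1L1 had no window in the table.

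UHRF1, which binds hemimethylated DNA behind the replication fork, had the lowest ratio of all members in each treated column. It stood at 9.71 FPKM with GSK126, 3.86 with astemizole and 1.90 in the knockdown column, against 26.5 with scramble shRNA and 22.2 with vehicle. All 3 treated values lay below both controls, and the log2 ratios were -1.11 with GSK126, -2.26 with astemizole and -3.24 with knockdown. When every column was rescaled to the same sum (TPM) the GSK126 ratio was -0.93, short of 2-fold. DNMT1 stood at 24.0 FPKM with GSK126, 14.7 with astemizole and 13.5 in the knockdown column, against 40.3 with scramble shRNA and 41.9 with vehicle. The controls were close together and the treated values again lay below them, with log2 ratios of -0.78, -1.45 and -1.51.

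The other members of these families differed. UHRF2, which resembles UHRF1 in its domains, stood at 9.08 FPKM with GSK126, 6.37 with astemizole and 8.80 in the knockdown column, against 9.34 with scramble shRNA and 8.57 with vehicle. DNMT3A, a de novo methyltransferase, stood at 7.52 FPKM with GSK126, 5.47 with astemizole and 8.14 in the knockdown column, against 6.85 with scramble shRNA and 5.26 with vehicle, and the ratios were 0.44, 0.05 and 0.22. Against scramble shRNA the astemizole ratio of DNMT3A was -0.28. DNMT3B stood at 3.55 FPKM with GSK126, 1.98 with astemizole and 1.94 in the knockdown column, against 2.97 with scramble shRNA and 4.97 with vehicle. Its ratios were -0.39, -1.004 and -0.43, the astemizole ratio being just past 2-fold. Against the scramble column, where DNMT3B was lower than with vehicle, the astemizole ratio was -0.41.

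As FPKM is per length, the make-up of small families could be read within a column. DNMT1 held 68.4% of the summed FPKM of the 3 DNA methyltransferases with GSK126, 66.3% with astemizole and 57.2% in the knockdown column, against 80.4% with either control. UHRF1 held 51.7%, 37.7% and 17.7% of the UHRF pair in the same columns, against 73.9% with scramble shRNA and 72.1% with vehicle. UHRF1 was thus the more abundant of the pair in both controls and with GSK126, and UHRF2 with astemizole and in the knockdown column. These shares do not depend on the scaling of a column.

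TET dioxygenases were among the lowest members by level. TET1 stood at 3.72 FPKM with GSK126, 0.0970 with astemizole and 0.172 in the knockdown column, against 0.534 with scramble shRNA and 0.377 with vehicle. The GSK126 column stood apart from the other 4, with a log2 ratio of 1.78 to vehicle and of 1.62 to scramble shRNA. With a pseudocount of 0.1 FPKM the ratios of astemizole and knockdown were -1.28 and -1.22, past 2-fold, and at 1 FPKM they were -0.33 and -0.39. These ratios rest on values under the filter of 1 FPKM. TET2 stood at 2.68, 1.83 and 3.14 FPKM in the treated columns, against 2.11 with scramble shRNA and 1.62 with vehicle. TET3 stood at 3.77, 2.48 and 3.84 FPKM, against 3.31 and 3.11. Both thus stayed within 2-fold of their controls. The summed FPKM of the 3 TET enzymes over that of the 3 DNA methyltransferases was 0.290 with GSK126, 0.199 with astemizole and 0.304 in the knockdown column, against 0.119 with scramble shRNA and 0.0981 with vehicle. TET1 made up 36.6% of the TET sum with GSK126, 2.2% with astemizole and 2.4% in the knockdown column. The GSK126 column also held liver transcripts: 9 of 9 liver markers, albumin (ALB) among them, were highest in it, and their summed level was 177 FPKM with GSK126, 5.62 with astemizole and 3.23 in the knockdown column, against 2.04 with scramble shRNA and 20.6 with vehicle. The markers at 0 were APOA2 and FGB with astemizole, FGB in the knockdown column, and AFP, APOA2, APOB and FGB with scramble shRNA. The part of these transcripts in the TET1 value was not tested.

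**Figure D2:**
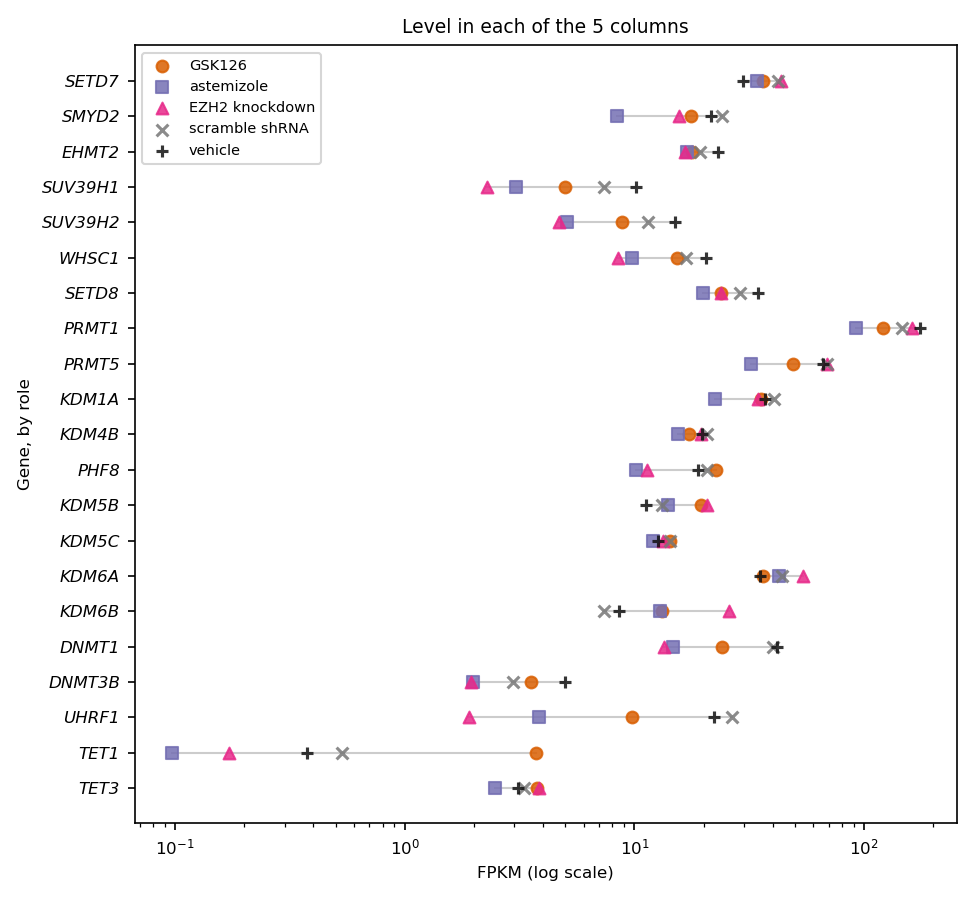
FPKM on a log scale (horizontal) in each of the 5 columns (symbols) for the 21 members given in full (vertical, by role); the grey line joins the lowest and highest value. UHRF1, SUV39H1, SUV39H2, DNMT1, SMYD2, EHMT2, WHSC1, SETD8, KDM1A and KDM4B have the 3 treated symbols left of both controls. TET1 with GSK126 (3.72) stands right of the other 4 columns (0.0970 to 0.534).

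Among the 6 H3K9 methyltransferases the SUV39H pair passed 2-fold and the other 4 did not. SUV39H1 stood at 4.99 FPKM with GSK126, 3.06 with astemizole and 2.27 in the knockdown column, against 7.39 with scramble shRNA and 10.2 with vehicle, and its ratios were -0.90, -1.46 and -1.36. SUV39H2 stood at 8.86, 5.06 and 4.68 FPKM in the treated columns, against 11.5 with scramble shRNA and 15.0 with vehicle, and its ratios were -0.69, -1.40 and -1.13. For both genes every treated value lay below both controls. EHMT1 and EHMT2, the pair known as GLP and G9a that mono- and dimethylate H3K9, had ratios between -0.42 and 0.23. EHMT2 stood at 17.7 FPKM with GSK126, 16.9 with astemizole and 16.7 in the knockdown column, against 19.3 with scramble shRNA and 23.0 with vehicle, so its treated values also lay below both controls. SETDB1, which silences endogenous retroviruses with TRIM28, had 0.31, 0.23 and 0.31 with GSK126, astemizole and knockdown, but -0.04 with GSK126 and -0.13 with astemizole against scramble shRNA. Its relative SETDB2 had 0.36, 0.74 and 0.33, and 0.74 with astemizole was the highest member ratio of that comparison. The SUV39H pair held 21.5% of the summed FPKM of the 6 enzymes with GSK126, 13.8% with astemizole and 11.4% in the knockdown column, against 27.6% with scramble shRNA and 32.4% with vehicle.

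Methyltransferases of H3K36 and H4K20 had smaller ratios. WHSC1 (NSD2), which dimethylates H3K36, stood at 15.4 FPKM with GSK126, 9.80 with astemizole and 8.51 in the knockdown column, against 16.8 with scramble shRNA and 20.5 with vehicle. Its ratios of -0.40, -0.997 and -0.91 fell short of 2-fold, although the treated values lay below both controls. With a pseudocount of 0.1 FPKM the astemizole ratio was -1.06, and against vehicle the knockdown ratio was -1.18. The related NSD1 and WHSC1L1 had ratios between -0.28 and 0.21, SETD2, which adds the third methyl group to H3K36, had -0.42, -0.41 and -0.11, and ASH1L had 0.40, 0.19 and 0.39. Against scramble shRNA the ratios of ASH1L were -0.09 with GSK126 and -0.31 with astemizole. SETD8, which monomethylates H4K20 and is degraded in S phase, stood at 23.9 FPKM with GSK126, 19.97 with astemizole and 23.7 in the knockdown column, against 28.7 with scramble shRNA and 34.3 with vehicle, and its ratios were -0.50, -0.75 and -0.27. SUV420H1, which adds further methyl groups to H4K20, had ratios of 0.45, -0.03 and 0.55, SUV420H2 had -0.34, -0.21 and 0.45, and SMYD5, also reported to trimethylate H4K20, had -0.45, -0.20 and 0.27.

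In the list of H3K4 and H3K79 enzymes SMYD2 was past 2-fold with astemizole. SMYD2, which methylates histones and also p53, stood at 17.6 FPKM with GSK126, 8.39 with astemizole and 15.6 in the knockdown column, against 24.1 with scramble shRNA and 21.6 with vehicle. All treated values lay below both controls, and the ratios were -0.29, -1.27 and -0.60. DOT1L, the H3K79 methyltransferase, had -0.43, -0.81 and 0.15. SETD7, SMYD3 and the SET1 complex enzymes SETD1A and SETD1B had ratios between -0.05 and 0.38 in the 3 comparisons, and SETD7 had the highest vehicle level of this list, at 29.5 FPKM. SETD7 itself stood at 36.3 FPKM with GSK126, 34.2 with astemizole and 43.4 in the knockdown column, against 42.1 with scramble shRNA.

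Arginine methyltransferases held the top 3 levels of all members with vehicle, where PRMT1, PRMT5 and PRMT6 stood at 174, 66.4 and 52.9 FPKM. The median level of the 51 members was 13.2 FPKM with GSK126, 10.1 with astemizole and 12.7 in the knockdown column, against 13.1 with scramble shRNA and 11.3 with vehicle. PRMT1, which makes most asymmetric dimethylarginine, stood at 120.5 FPKM with GSK126, 91.7 with astemizole and 161 in the knockdown column, against 147 with scramble shRNA and 174 with vehicle, and it was the highest member in every column. PRMT5, which makes symmetric dimethylarginine, stood at 48.8, 32.3 and 69.1 FPKM in the treated columns, against 69.2 with scramble shRNA and 66.4 with vehicle. With both compounds PRMT1 and PRMT5 lay below both controls, while in the knockdown column neither did. The PRMT5 ratios were -0.44 with GSK126, -1.02 with astemizole and -0.00 with knockdown, and the astemizole ratio was -0.98 after TPM rescaling. The PRMT1 ratios were -0.53, -0.92 and 0.13. PRMT3, which methylates a ribosomal protein, had 0.02, -0.62 and 0.17, PRMT6 had 0.07, -0.39 and 0.06, PRMT2 had 0.27, 0.50 and 0.17, and PRMT7 and CARM1 lay between -0.27 and 0.45. Over the 7 enzymes the median ratio was -0.18 with GSK126 (0.01 after TPM rescaling), -0.39 with astemizole and 0.13 with knockdown.

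Histone demethylases were led by KDM6B in the knockdown column. KDM6B (JMJD3), which removes the H3K27 mark that EZH2 writes, stood at 13.2 FPKM with GSK126, 12.9 with astemizole and 25.7 in the knockdown column, against 7.40 with scramble shRNA and 8.60 with vehicle. All 3 treated values lay above both controls, and the ratios were 0.56, 0.54 and 1.67. Against vehicle the knockdown ratio was 1.47. KDM6A (UTX), its X-linked paralog, stood at 36.2, 42.4 and 54.1 FPKM, against 43.9 with scramble shRNA and 35.3 with vehicle, with ratios of 0.03, 0.26 and 0.29. KDM6B held 26.7% of the pair with GSK126, 23.3% with astemizole and 32.2% in the knockdown column, against 14.4% with scramble shRNA and 19.6% with vehicle. The summed FPKM of both demethylases over that of EZH1 and EZH2 was 2.25 with GSK126, 3.94 with astemizole and 8.41 in the knockdown column, against 1.87 with scramble shRNA and 1.45 with vehicle. The knockdown value rests on the targeted gene itself.

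**Figure D3:**
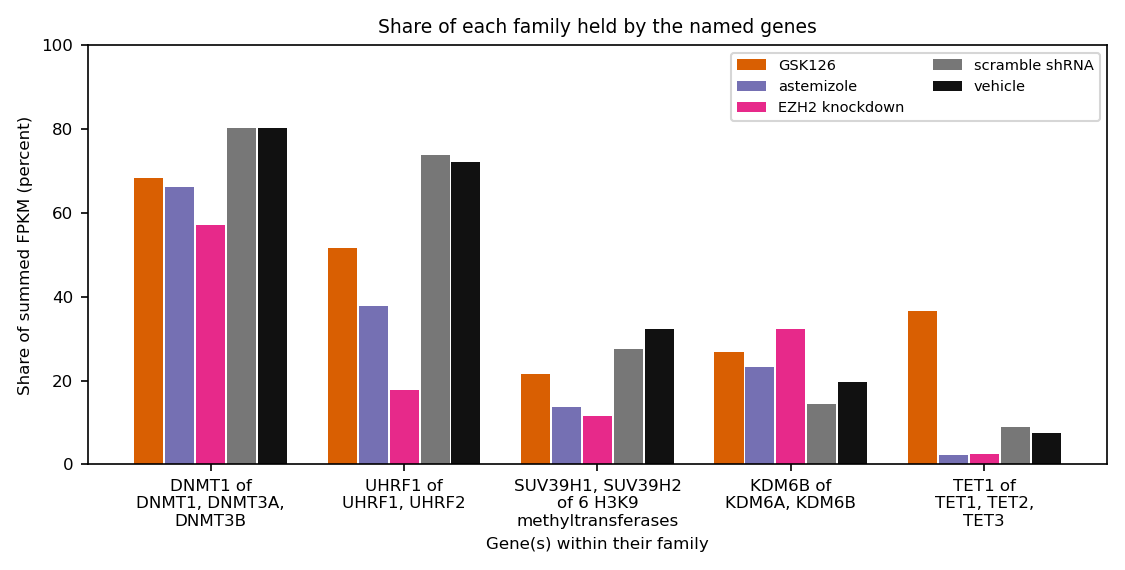
Share of the summed FPKM of a family (percent, vertical) held by the genes named under each set of bars, in the 5 columns (colours). The DNMT1, UHRF1 and SUV39H bars are lower in the 3 treated columns than in both controls, the KDM6B bars are higher, and TET1 reaches 36.6% with GSK126.

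The remaining demethylases stayed under 2-fold of their controls. KDM5B, an H3K4 demethylase, stood at 19.6 FPKM with GSK126, 13.9 with astemizole and 20.8 in the knockdown column, against 13.2 with scramble shRNA and 11.2 with vehicle. The treated values lay above both controls, and the ratios were 0.75, 0.29 and 0.62. After TPM rescaling the astemizole value lay below that of scramble shRNA. KDM5A had 0.51, 0.22 and 0.09, and KDM5C, at 14.3, 12.0 and 13.3 FPKM against 14.3 with scramble shRNA and 12.6 with vehicle, had 0.17, -0.06 and -0.10. PHF8, which removes H3K9 and H4K20 methyl groups, stood at 22.7 FPKM with GSK126, 10.2 with astemizole and 11.3 in the knockdown column, against 20.6 with scramble shRNA and 18.9 with vehicle. GSK126 thus lay above both controls while astemizole and the knockdown lay below both, and the ratios were 0.25, -0.84 and -0.81.

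KDM1A (LSD1), the flavin-dependent H3K4 demethylase and a coregulator of the androgen receptor, stood at 35.7 FPKM with GSK126, 22.5 with astemizole and 34.6 in the knockdown column, against 40.7 with scramble shRNA and 37.2 with vehicle. Its ratios were -0.06, -0.70 and -0.23, and those of its relative KDM1B were 0.37, 0.03 and 0.29. Against scramble shRNA KDM1B was at -0.13 with GSK126 and -0.47 with astemizole. Of the H3K36 and H3K9 demethylases, KDM2A had ratios of 0.32, 0.23 and 0.61 and its paralog KDM2B had -0.31, -0.48 and -0.41. The signs of the pair were opposite in each comparison, although KDM2A with astemizole was at -0.01 against scramble shRNA. KDM4A had 0.30, 0.53 and 0.28, KDM3A had 0.02, -0.31 and -0.39, and KDM3B and KDM4C lay between -0.09 and 0.39. KDM4B, the highest of this list with vehicle, stood at 17.3, 15.4 and 19.4 FPKM, against 20.6 with scramble shRNA and 19.7 with vehicle.

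Against GSK126, astemizole had 0 members at least 2-fold higher (against 2.19% of all genes) and 3 of 51 lower (against 3.28%): TET1 at -2.11, UHRF1 at -1.14 and PHF8 at -1.09. TET1 reached 1 FPKM only in the GSK126 column, so in this comparison it could only be counted as lower. That column also held the most liver transcripts, 177 FPKM summed over the markers, against 20.6 with vehicle. SMYD2 was just short at -0.98, and -1.17 after TPM rescaling. The members' median was -0.25, beside -0.05 over all genes. The members' positions relative to both controls also differed between treatments. With GSK126, 17 members lay above both controls (36.8% of all genes did) and 18 below both (32.7%). With astemizole 7 lay above (38% of all genes) and 28, or 54.9%, below (41%). In the knockdown column 27, or 52.9%, lay above (37.2%) and 15 below (41.5%), including 2 of the 3 DNA methyltransferases.

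Astemizole against vehicle and knockdown against scramble shRNA share no column, so their ratios could be set side by side. Across the 51 members Spearman's rho was 0.75, against 0.38 across all 12935 genes, and 38 members (74.5%) had the same sign, against 61.2%. For GSK126 against vehicle beside the knockdown, rho was 0.56 across members and 0.31 across all genes. Genes within a library share its depth and are not independent replicates, so these values describe the libraries only.

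**Figure D4:**
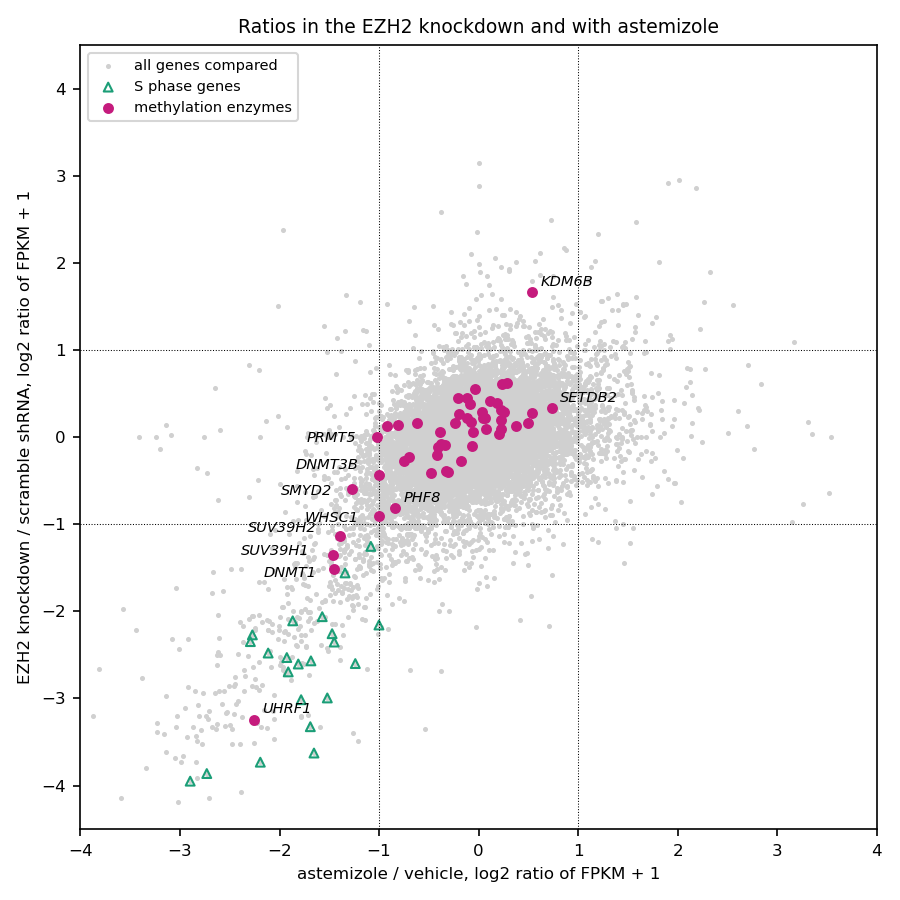
Log2 ratio of FPKM + 1 for astemizole over vehicle (horizontal) and EZH2 knockdown over scramble shRNA (vertical) for all genes compared (grey), 22 S phase genes (green triangles) and the 51 members (pink); dotted lines mark 2-fold and 15 genes lie outside the axes. UHRF1 (-2.26 and -3.24) lies among the S phase genes, while PRMT5 and SMYD2 pass the astemizole line without passing that of the knockdown.

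Other methylation enzymes and partner proteins, a second list of 40 names with 39 compared, gave a background for the members. Past 2-fold stood 0 upward and 0 downward with GSK126, with astemizole 0 and 1, and with knockdown 0 and 1, and the medians were -0.06, -0.24 and -0.00. Of all genes, 1.05% stood higher and 0.951% lower with GSK126, 3.53% and 5.5% with astemizole, and 1.93% and 5.1% with knockdown. The lysyl hydroxylase gene JMJD6 had the astemizole count, with ratios of -0.86, -1.07 and -0.43. CBX5, which encodes an HP1 protein that binds the mark written by SUV39H1, had the knockdown count. It stood at 19.1 FPKM with GSK126, 10.6 with astemizole and 9.78 in the knockdown column, against 25.7 with scramble shRNA and 18.7 with vehicle. Both counts depended on the control: scramble shRNA against vehicle was 0.44 for CBX5 and -0.47 for JMJD6. Against the other control column, neither gene was 2-fold lower in the comparison that counted it. The HP1 genes CBX1 and CBX3 had smaller knockdown ratios: CBX1 had -0.29, -0.64 and -0.23, and CBX3 had -0.47, -0.98 and -0.10. TRIM28 had -0.62, -0.99 and -0.41. The MLL family enzymes KMT2A to KMT2E had ratios between -0.00 and 0.69, the highest being that of KMT2B with knockdown. KMT2A differed between the controls by 0.88, at 6.57 FPKM with scramble shRNA and 3.12 with vehicle.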

How the data were processed

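The authors deposited 1 table of FPKM values with 5 columns for 6 libraries, and all 5 columns were used. Alignment and quantification tools (TopHat2, Cuffdiff) and the build (hg19) are given per the submitters' processing notes. Annotation, filters and options are not stated, nor is how the knockdown column relates to the 2 hairpin libraries. The step between low values set the worth of 1 read, relative to vehicle, at 0.949 for GSK126, 1.05 for astemizole and 0.856 for scramble shRNA. Absolute depth stays unknown.

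From 28503 lines, 27 names turned into dates and 1695 short RNA names were left out, and 12935 genes that reached 1 FPKM in any column were kept, on the log2(FPKM + 1) scale (Python 3.11.15, pandas 2.3.3). The steps were tested on simulated data. The members, role lists and alternatives were chosen with earlier results of these data known. Values in every column are given for members at 2-fold or more in any comparison and, per role list, for the member with the highest vehicle level and that with the largest ratio. Other members named with values in every column (UHRF2, DNMT3A, TET2) were chosen after their values were seen. Promoter sequences are from RefSeq, build GRCh38.p14, and 48 of 51 members had one. The result of 1 gene of the methyl donor list is not reported here. The count of signs against the other control, the TPM values of members relative to both controls and the role list medians under the alternatives were added after seeing the data.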

Additional observations from a re-analysis of the deposited data

How the results depend on the processing

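No paired analysis was possible because each condition has a single value and no test was made. Of 387 alternative values of single member ratios, 317 moved by less than 0.20 (log2), the median absolute difference between the controls, 70 moved by more, and 0 of the ratios past 2-fold changed sign. A filter does not enter a ratio, so the values under the 5 FPKM filter could not move. Those without a filter repeat those at the 0.1 FPKM pseudocount. The 317 therefore include values that were fixed in advance and do not measure stability. With a pseudocount of 0.1 FPKM, with or without the filter, 2 members were at least 2-fold lower with GSK126 in place of 1, SUV39H1 being added, 9 with astemizole and 5 with knockdown. With the filter, 1.83%, 7.9% and 7.77% of all genes were. TET1, under 1 FPKM in every column but that of GSK126, was added with astemizole and knockdown, and WHSC1 with astemizole. With a filter at 5 FPKM 45 members remained, TET1 was left out and 0 were higher with GSK126. TPM rescaling shifted the all-gene median by 0.19 for GSK126 against vehicle and by 0.23 between the controls. It left 0 members lower with GSK126 and gave a median of 0.23 there. With astemizole, SETD1B, SMYD3 and KDM5B no longer lay above both controls. With GSK126, SMYD3, NSD1, KDM5A and KDM5C no longer lay above both, and SETD1A, PRMT7, KDM1A and KDM4B no longer lay below both. Members also moved the other way: with GSK126, EHMT1 and KDM4C came to lie above both. Of all genes, 2.2% then stood 2-fold or more above vehicle with GSK126 and 0.549% below. At 1.5-fold, 2 members were higher and 4 lower with GSK126 (4.93% and 6.39% of all genes), 1 and 14 with astemizole (1352 and 1889 of 12935 genes), 3 and 7 with knockdown (8.19% and 11.7%), and 10 lower for astemizole against GSK126 (8.39%). With the other control column, 6 members were lower with astemizole (3.9% of all genes) and 6 with knockdown (7.25%). Medians of role lists were small enough to turn sign with the setting in 13 cases, 9 of them with the other control. Without replicates or depth, no error can be given for any value.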

Other observations

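Genes of methyl donor supply formed a list of 21 names. With astemizole 3 of 21 were at least 2-fold higher and 0 lower, against 3.53% and 5.5% of all genes. Among the higher ones were the serine synthesis gene PSAT1, at 244 FPKM with astemizole against 107 with vehicle (a log2 ratio of 1.19), and the cytosolic isocitrate dehydrogenase gene IDH1, at 370.2 against 168.8 (1.13). PHGDH, the first enzyme of serine synthesis, had 0.79 with astemizole and -0.83 with knockdown, and SHMT2, which passes the serine carbon to folate in mitochondria, 0.60 and -0.69. With knockdown MTHFD2, a mitochondrial folate enzyme gene, was at least 2-fold lower (-1.44) and 0 were higher, against 5.1% and 1.93% of all genes. With GSK126 none of the 21 passed 2-fold in either direction, against 1.05% of all genes higher and 0.951% lower. The list's medians were -0.17 with GSK126, -0.26 with astemizole and -0.33 with knockdown. The S-adenosylmethionine synthase gene MAT2A had -0.08, -0.60 and -0.42, and AHCY, which clears the product of every methyl transfer, had -0.17, -0.33 and -0.08.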
